A study of Mus musculus with 12 samples.

Results

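Protocadherins are cell adhesion molecules of the cadherin superfamily, and the brain expresses most of them. The clustered genes form the alpha, beta and gamma arrays, which lie next to each other on mouse chromosome 18. Each array holds a row of variable exons with their own promoters, and a neuron uses a small, partly random set of them, so that its surface carries a combination of isoforms that bind the same combination on another cell. In the alpha and gamma arrays every variable exon is spliced to a shared set of constant exons that encode a common cytoplasmic tail, whereas each beta gene is a single coding exon without such a tail. The C-type genes at the end of the alpha and gamma arrays (Pcdhac1, Pcdhac2, Pcdhgc3, Pcdhgc4 and Pcdhgc5) are used more uniformly than the others. Non-clustered protocadherins are separate genes, of which the delta-1 genes (Pcdh1, Pcdh7, Pcdh9, Pcdh11x) and the delta-2 genes (Pcdh8, Pcdh10, Pcdh17, Pcdh18, Pcdh19) differ in the motifs of their cytoplasmic domains.

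The protocadherin genes described here are the genes of the table of coding sequence (CDS) counts whose symbol carries the stem Pcdh followed by a number or by the name of an alpha, beta or gamma isoform. The rule gave 71 of the 20504 genes, namely 15 alpha genes, 22 beta genes, 22 gamma genes (12 of the A type, 7 of the B type and 3 of the C type) and 12 non-clustered genes. It used names only, and no measured value.

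The data came from 6 mice that were 3 months old. All carried the Camk2a-cre transgene and the RiboTag allele, which together put an HA tag on the ribosomal protein Rpl22 in principal excitatory neurons of the forebrain. Mice A and B were killed 1 hour after vehicle (the labels say untreated) and mice C and D 1 hour after oral gavage of 100 mg/kg AZD-8055, an ATP-competitive inhibitor of the kinase mTOR. From each of these 4 mice, ribosome footprints and poly(A) RNA of the same tissue were sequenced. Mice E and F were untreated, and RNA-Seq was done on their homogenized tissue (input) and on RNA from immunoprecipitated tagged polysomes (IP). Each group therefore held 2 mice. The tag depends on the Camk2a promoter, so an IP library reports excitatory neurons only as far as this promoter and the precipitation are specific.

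CDS counts summed to between 3503873 and 15585831 per library, and the exon counts of the 8 RNA-Seq libraries to between 16796999 and 27878212. Libraries of the same group differed by more than counting error, with chi-square values per degree of freedom between 2.61 and 17.4 across genes. Protocadherins took up 0.149% to 0.176% of CDS counts in the RNA-Seq libraries of tissue, 0.0592% and 0.0655% in the IPs, and 0.266% to 0.283% in the footprint libraries. The protocadherin share was thus lower in both IPs than in any tissue RNA library, and higher in every footprint library.

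Where a read fell within a protocadherin gene differed between the classes. CDS counts made up 100.0% of the exon counts of alpha genes and 98.3% of those of gamma genes, against 69.9% for beta genes, 48.4% for non-clustered genes and 54.4% for all genes. The long 3′ untranslated region (UTR) in the last constant exon of the alpha and gamma arrays therefore added almost nothing to their exon counts. A constant exon belongs to every gene of its array, and reads on such a shared exon cannot be given to a single gene by a counter that discards ambiguous reads. The counts of alpha and gamma genes are accordingly read here as counts of their variable exons. Pcdha4 and Pcdha4-g, whose names point to the same part of the alpha array, had 0 CDS counts in all 12 libraries, which shows only that no read was assigned to them. Near-identical stretches between neighbouring genes can also remove reads, since the authors counted uniquely mapped reads. Pcdhgb8 is annotated as a transcribed pseudogene in RefSeq (GRCm38.p6).

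Levels were compared between genes only where a length was at hand, which was the case for the beta genes, taken as single exons from their RefSeq spans on GRCm38.p6, 2.34 to 5.27 kb. Pcdhb17 (chromosome 18, 37485021 to 37488290) had the highest level, 5.54 ± 0.54 exon CPM (counts scaled to the same library total) per kb (SD over the tissue RNA of 6 mice), followed by Pcdhb20 at 4.08 ± 0.37 and Pcdhb9 at 3.81 ± 0.53. The ranges of Pcdhb20 (3.51 to 4.46) and Pcdhb9 (3.20 to 4.55) overlapped, whereas that of Pcdhb17 (4.84 to 6.29) lay above both. Pcdhb12 was next at 2.99 ± 0.36. Pcdhb1, the gene at the start of the array, was lowest at 0.043 ± 0.035 and had no exon count in the RNA-Seq libraries of mice A and C. The other beta genes lay between 0.52 and 2.43, and neighbours in this order overlapped in their ranges. A span can hold more than the counted exon, so these levels are approximate for the longest genes, Pcdhb16 and Pcdhb18.

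The IP was compared with the input to ask which protocadherin RNAs were carried by the ribosomes of Camk2a-expressing neurons. Exon counts were divided by size factors, and a gene was called at an adjusted p under 0.05 and more than a 2-fold difference in edgeR's quasi-likelihood test over 13254 genes. Of the 59 protocadherins whose mean over the libraries reached 37 counts, 36 were called lower in the IP and none was called higher, against 21.8% of all genes called lower and 11.7% called higher. With DESeq2 35 were called lower and 0 higher. An unadjusted p under 0.05 in either direction was found for 46 of 59, close to the 71.96% of all genes (edgeR). Poor representation in the IP can come, among other sources, from few such neurons with the RNA or from little RNA per neuron. These cannot be told apart here. The 12 genes that did not reach 37 counts were Pcdha1, Pcdha2, Pcdha3, Pcdha4, Pcdha4-g, Pcdha8, Pcdhb1, Pcdhb2, Pcdhb4, Pcdhb6, Pcdhb21 and Pcdh12.

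The classes differed in how far they fell. Gamma genes had a median log2 IP over input of −1.60 in mouse E and −1.99 in mouse F, and 21 of 22 were called lower. Alpha genes had medians of −1.27 and −1.43, and 9 of 9 were called lower. Non-clustered genes had medians of −0.41 and −0.76, with 4 of 11 called. Beta genes had medians of −0.20 and −0.10, close to the 0.089 and 0.074 of all genes, and 2 of 17 were called. Every tested alpha and gamma value was negative in both mice, whereas 6 of 17 beta values were above 0 in mouse E and 7 in mouse F. Genes are not replicates, so this is a description of the classes without a test between them. The filter used the mean of input and IP together, so a gene low in the IP could pass through its input. Among others, Pcdha7 (raw exon counts 50 and 67 in input, 17 and 18 in IP), Pcdha10 (78 and 72, 22 and 6) and Pcdhgb5 (47 and 98, 13 and 11) did so. Such genes are among those called. With a mean of at least 100 counts, 19 of 38 protocadherins were called lower.

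**Figure D1:**
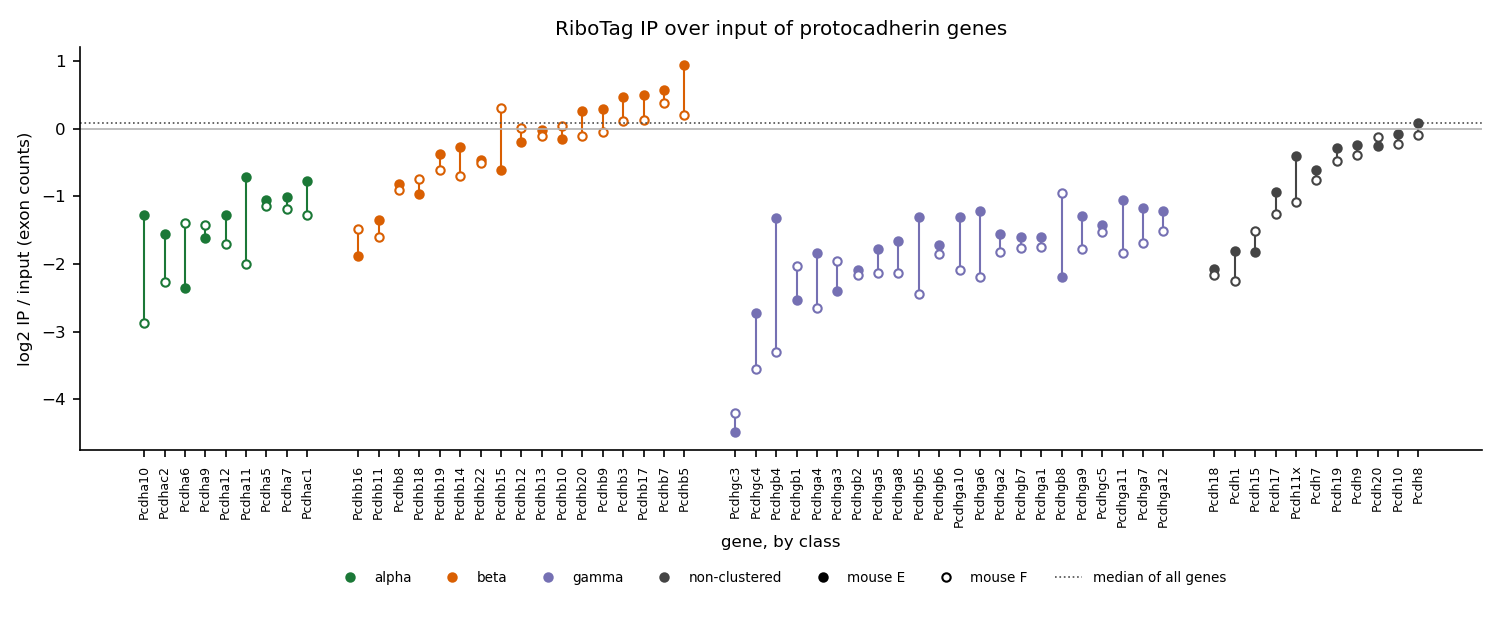
Log2 ratio of IP to input (exon counts over size factors) for the 59 protocadherin genes with enough counts, ordered by class and value, with a filled point for mouse E, an open point for mouse F and a dotted line at the median of all genes. All 9 alpha and 22 gamma genes lie below 0 in both mice, the beta genes lie around 0 and Pcdhgc3 lies lowest, at −4.48 and −4.21.

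The C-type genes of the gamma array differed widely among themselves. Pcdhgc3 had normalized exon counts of 1128 and 1088 in the inputs of mice E and F and of 50.6 and 58.8 in their IPs. The groups were far apart, and the fitted difference of −4.45 ± 0.14 (SE, adjusted p = 4.86e-05, edgeR) was the largest fall among the protocadherins tested. Pcdhgc4 went from 194 and 231 in input to 29.3 and 19.6 in IP, a difference of −3.24 ± 0.27 (adjusted p = 0.000158, edgeR). Pcdhgc5 went from 2279 and 2081 to 852 and 718, a difference of −1.59 ± 0.12 (adjusted p = 0.000117, edgeR). The 3 genes share their constant exons and their 3′ ends, and the 95% intervals of Pcdhgc3 (−4.78 to −4.11) and Pcdhgc5 (−1.88 to −1.30) did not overlap. Read as composition, Pcdhgc3 made up 18.01% and 16.18% of gamma CDS counts in the inputs and 2.57% and 3.46% in the IPs, while Pcdhgc5 went from 36.8% and 31.4% to 46.5% and 43.9%. In both mice the share of Pcdhgc3 was lower in the IP and that of Pcdhgc5 higher.

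The A- and B-type gamma genes fell by similar amounts. The 12 A-type genes lay between −2.24 (Pcdhga4) and −1.37 (Pcdhga12) in the mean log2 ratio of both mice, and the 7 B-type genes between −2.32 (Pcdhgb4) and −1.57 (Pcdhgb8). Among the largest fitted differences, Pcdhgb1 had −2.34 ± 0.32 (adjusted p = 0.00090, edgeR), Pcdhga4 −2.27 ± 0.36 (adjusted p = 0.0017), Pcdhgb2 −2.24 ± 0.29 (adjusted p = 0.00074), Pcdhga3 −2.21 ± 0.43 (adjusted p = 0.0042) and Pcdhga5 −2.07 ± 0.22 (adjusted p = 0.00032). Pcdhga11, with −1.76 ± 0.74 and an adjusted p of 0.074 (edgeR), did not pass, although its ratios were −1.05 (E) and −1.83 (F). Its inputs, 90.9 and 407, differed far more between the mice than those of the other A-type genes.

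The alpha genes resembled the gamma A and B types. Pcdhac2, the C-type alpha gene with the most counts, had normalized exon counts of 557 and 714 (input) and 189 and 149 (IP), and its difference was −2.03 ± 0.19 (adjusted p = 0.00021, edgeR). Pcdhac1, the other C-type alpha gene, had 61.8 and 97.8 against 36.0 and 40.3, a difference of −1.18 ± 0.32 (adjusted p = 0.016, edgeR). Of the alpha genes with the most counts, Pcdha12 gave −1.55 ± 0.41, Pcdha9 −1.63 ± 0.27 and Pcdha5 −1.22 ± 0.27, all called. Apart from Pcdhac2 the tested alpha genes had at most 78.6 normalized counts in an IP, and their SEs lay between 0.27 and 0.57.

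In the beta array fewer genes were called than in the others. Pcdhb17, the gene with the highest level, had input values of 314 and 348 and IP values of 442 and 380, a difference of 0.19 ± 0.14 with a 95% interval of −0.15 to 0.53. Pcdhb20 gave −0.041 ± 0.15 and Pcdhb9 −0.011 ± 0.19, and neither passed the test. The highest fitted value was that of Pcdhb7, 0.34 ± 0.20 (adjusted p = 0.18, edgeR). Pcdhb16 and Pcdhb11 were the called genes. Pcdhb16 fell from 157 and 170 to 42.6 and 61.1 (−1.77 ± 0.25, adjusted p = 0.0010, edgeR), and Pcdhb11 had 98.1 and 66.2 against 38.6 and 21.9 (−1.56 ± 0.37, adjusted p = 0.0097, edgeR). Both genes were below their input in both mice. A further 5 beta genes were lower at an adjusted p under 0.05 but by less than 2-fold (edgeR), namely Pcdhb8 (−0.97 ± 0.35), Pcdhb18 (−0.94 ± 0.34), Pcdhb14 (−0.62 ± 0.21), Pcdhb19 (−0.61 ± 0.22) and Pcdhb22 (−0.60 ± 0.21).

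Among the non-clustered genes, Pcdh18 (delta-2) went from 113 and 140 in input to 26.6 and 31.1 in IP, a difference of −2.24 ± 0.26 (adjusted p = 0.00050, edgeR). Pcdh1 (delta-1) had 2246 and 1798 against 638 and 377, a difference of −2.12 ± 0.25 (adjusted p = 0.00052, edgeR). Pcdh15, a tip-link component of the hair cells of the inner ear, had 554 and 581 against 156 and 204 (−1.77 ± 0.16, adjusted p = 0.00021, edgeR), and Pcdh17 (delta-2) had 1832 and 1673 against 961 and 701 (−1.20 ± 0.16, adjusted p = 0.00089, edgeR). In each of these the groups did not overlap. Pcdh10 (delta-2), with input values of 4801 and 5098 and IP values of 4543 and 4342, was lower by a small amount (−0.27 ± 0.087, adjusted p = 0.030, edgeR). Pcdh8 (delta-2), an activity-regulated gene also called arcadlin, had 704 and 625 against 748 and 586 (−0.11 ± 0.15). Pcdh20 gave −0.29 ± 0.43, Pcdh9 −0.44 ± 0.17, Pcdh19 −0.51 ± 0.14, Pcdh7 −0.81 ± 0.13 and Pcdh11x −0.86 ± 0.18, and none of these reached a 2-fold difference. Of the genes below 2-fold, Pcdh10, Pcdh19, Pcdh7 and Pcdh11x had an adjusted p under 0.05 (edgeR), and Pcdh8, Pcdh20 and Pcdh9 did not.

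The result for the non-clustered genes depended on which part of the transcript was counted. On CDS counts, where 26.1% of 12211 genes were called lower, 8 of 11 were called, and Pcdh11x moved from −0.86 to −3.51 ± 0.28, Pcdh19, whose human counterpart is mutated in an epilepsy that mostly affects females, from −0.51 to −2.34 ± 0.28, Pcdh7 from −0.81 to −2.11 ± 0.14 and Pcdh9 from −0.44 to −1.08 ± 0.16. Pcdh15, Pcdh17 and Pcdh18 fell further, to −2.96, −2.15 and −2.78. Pcdh8 and Pcdh10 stayed near 0 on either count, at 0.11 and −0.14 on CDS. For exon counts outside the CDS, the mean log2 ratio was −0.15 in Pcdh11x, −0.082 in Pcdh19 and −0.11 in Pcdh7. In Pcdh11x, Pcdh19 and Pcdh7 the CDS counts were thus much lower in the IP, whereas the normalized counts outside the CDS were close to those of the input. Outside the CDS, Pcdh15 (−1.10), Pcdh18 (−1.07) and Pcdh17 (−0.65) were lower as well. Pcdh10 (0.12), Pcdh9 (0.42), Pcdh20 (0.64) and Pcdh8 (0.79) were above 0 there. The value of all genes outside the CDS is not given here, so these ratios are not placed against it.

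**Figure D2:**
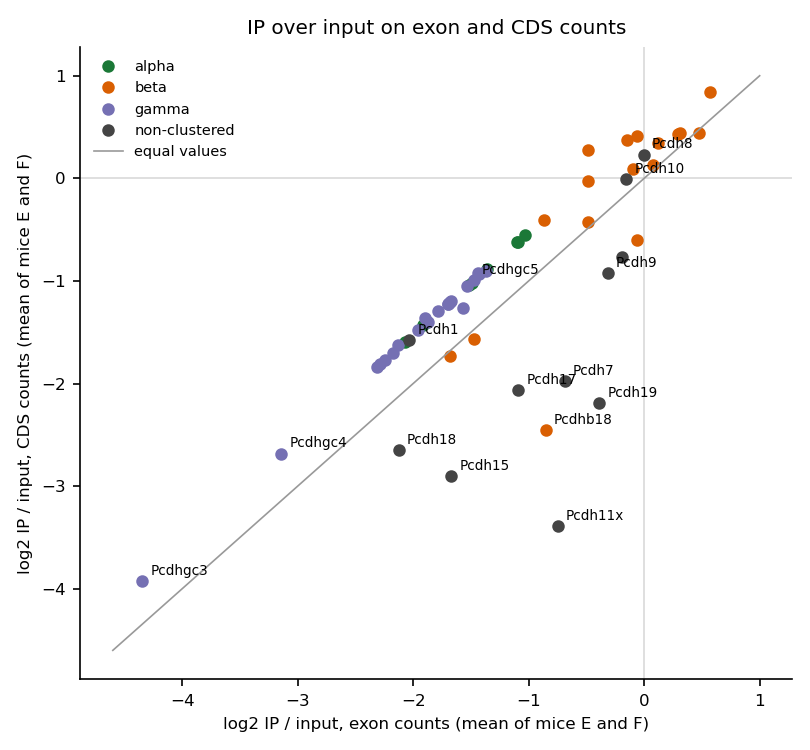
Mean log2 ratio of IP to input over mice E and F on exon counts (horizontal) and on CDS counts (vertical) for the protocadherin genes with enough counts, colored by class, with a line where both are equal. Pcdh11x, Pcdh19, Pcdh7, Pcdh17, Pcdh15 and Pcdhb18 lie well under the line, and the alpha and gamma genes, whose exon and CDS counts are almost the same, lie above it by nearly the same amount.

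The libraries differed in the same respect. Over 10081 genes, exon counts exceeded CDS counts by a median log2 ratio of 0.54 (E) and 0.56 (F) for input RNA and of 0.84 (E) and 0.94 (F) for IP RNA, so that reads outside the CDS had a larger part in the IPs. Alpha and gamma genes have almost no counted reads outside their CDS, and the part of this shift in their low IP values was not tested. On CDS counts for every gene, 6 of 9 alpha, 20 of 22 gamma and 3 of 17 beta genes were called lower. The class medians were then −0.84 and −0.91 for alpha, −1.16 and −1.47 for gamma and 0.036 and 0.093 for beta genes in mice E and F, so that the beta genes were again nearest to all genes (0.082 and 0.061). Pcdhb18 joined the beta genes called lower, at −2.57 ± 0.42 (adjusted p = 0.00046, edgeR).

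Markers of cell types moved with the IP as well. The 6 excitatory markers summed to 3058 and 2898 CPM in input RNA and to 6846 and 6807 in IP RNA, and 3 of them were called higher. Markers of other cells were lower, with 6 of 6 inhibitory, 4 of 6 astrocyte, 6 of 6 oligodendrocyte, 5 of 5 oligodendrocyte precursor, 5 of 6 microglial and 6 of 6 endothelial genes called. Their median log2 differences were −2.09, −3.34, −2.81, −3.32, −3.27 and −4.09 in that order. No marker was at 0 in the IPs, and astrocyte markers still summed to 118 and 137 CPM against 1209 and 1147 in the inputs. The values of Pcdhgc3 (−4.45) and Pcdhgc4 (−3.24) lay among those of non-neuronal markers. The medians of the alpha genes and of the A- and B-type gamma genes lay between the medians of all genes and of the inhibitory markers. They were also within the range of the single inhibitory markers, −2.81 to −1.46. The part of cell type composition in these values was not tested.

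Other genes around the protocadherins behaved as follows. Of 12 listed regulators of promoter choice in the clustered arrays 10 were tested, of which 5 were lower in the IP and none was higher, with a median of −0.81 against −0.034 for all genes. They were Nipbl, which loads cohesin (−1.26 ± 0.11), the cohesin subunits Stag2 (−1.21 ± 0.11) and Stag1 (−1.17 ± 0.10), Smchd1, a silencing factor of clustered loci (−1.13 ± 0.10), and the histone methyltransferase Setdb1 (−1.12 ± 0.11). Of 17 intracellular partners and proteases, Brk1, a subunit of the WAVE complex, was higher (1.51 ± 0.085), and Cyfip1, another subunit (−1.73 ± 0.10), and the receptor kinase Ret (−1.14 ± 0.22) were lower. Of 20 classical cadherins and catenins, Cdh5, which is also an endothelial marker (−4.26), Cdh6 (−1.64 ± 0.27) and Cdh7 (−1.37 ± 0.18) were lower. Of 9 listed large atypical cadherins 7 were tested and 5 were lower, namely Dchs1 (−2.44 ± 0.20), Celsr1 (−2.39 ± 0.30), Fat1 (−2.20 ± 0.11), Celsr3 (−2.05 ± 0.18) and Fat4 (−1.19 ± 0.16). These lists are read against the 21.8% of all genes called lower.

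Translation efficiency (TE) is the ratio of footprint to RNA-Seq CDS counts of a gene, each over size factors, and it was measured in the vehicle-treated mice A and B. A value of 0 on the log2 scale lies near the middle of all genes. Of 58 protocadherins tested, 39 had more footprints than RNA-Seq counts by over 2-fold at an adjusted p under 0.05 and none had fewer, against 13.2% of 11797 genes called higher and 17.6% called lower (edgeR). DESeq2 called 40 higher and 0 lower. An unadjusted p under 0.05 in either direction was found for 46 of 58, close to the 75.56% of all genes (edgeR). The called genes were 7 of 9 alpha, 18 of 21 gamma, 7 of 17 beta and 7 of 11 non-clustered genes. They include Pcdha10 (RNA-Seq counts of 41, 27, 46 and 30 in mice A to D) and Pcdhb21 (20, 21, 23 and 25). Both reached the filter's mean of 37 counts only through their footprints, the side on which they were higher.

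The class medians of log2 TE were 1.199 and 1.189 for gamma, 0.87 and 1.09 for alpha, 1.09 and 1.14 for non-clustered and 0.27 and 0.26 for beta genes in mice A and B, against 0.028 and −0.0088 for all genes. These medians cover the 55 genes that reached 75 footprints and 75 RNA-Seq counts over both mice. Pcdha3, Pcdha10 and Pcdhb21, all called, did not reach 75 RNA-Seq counts. Most gamma genes had similar values, since the 12 A-type genes lay between 0.93 and 1.55 and the 6 B-type genes counted between 1.00 and 1.37. The beta genes ranged from −0.34 to 1.79 and the non-clustered genes from −0.28 to 2.34. The part of read coverage along the transcript in these TEs was not tested.

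**Figure D3:**
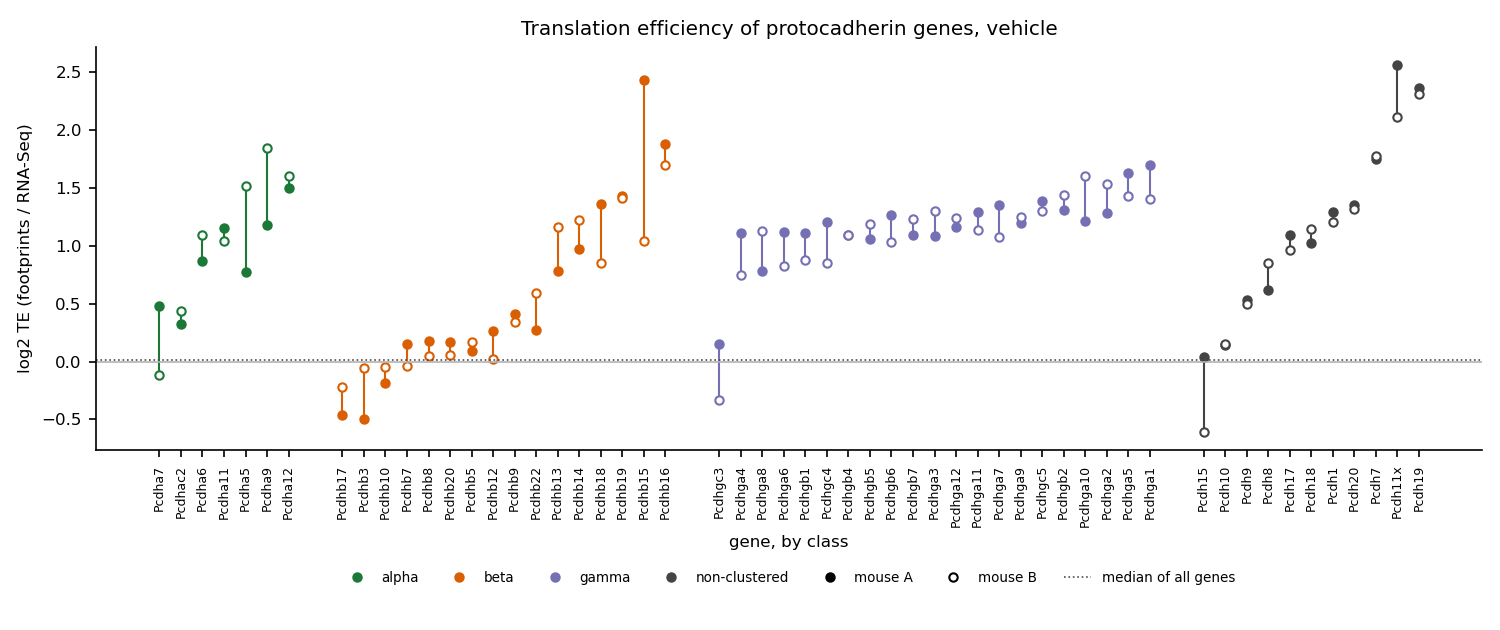
Log2 TE in vehicle-treated mice for the protocadherin genes with at least 75 footprints and 75 RNA-Seq counts, ordered by class and value, with a filled point for mouse A, an open point for mouse B and a dotted line at the median of all genes. Gamma genes other than Pcdhgc3 form a narrow band from 0.93 to 1.55 in their mean value, and Pcdh11x and Pcdh19 lie highest at 2.33 and 2.34.

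Among the genes that reached the count threshold, Pcdh11x and Pcdh19, both on the X chromosome, had the highest TE. For Pcdh11x there were 78 and 87 RNA-Seq counts in mice A and B but 414 and 165 footprints, so its log2 TEs were 2.56 and 2.11, and the fitted value was 2.40 ± 0.16 (adjusted p = 1.23e-09, edgeR). For Pcdh19 there were 107 and 104 RNA-Seq counts but 497 and 226 footprints, with log2 TEs of 2.36 and 2.31 (2.39 ± 0.16, adjusted p = 1.71e-09, edgeR). Both lay at the 99.0 percentile of all genes. Pcdh7 was next among the non-clustered genes, with RNA-Seq counts of 615 and 647 and footprints of 1869 and 970 (1.80 ± 0.074, adjusted p = 6.31e-12, edgeR). Pcdh19 and Pcdh11x were also the non-clustered genes with the smallest part of their exon counts in the CDS, 17.1% and 24.7%. Next in that order came Pcdh17 (32.4%), Pcdh7 (33.2%) and Pcdh15 (33.6%), whose log2 TEs were 1.07 ± 0.086, 1.80 ± 0.074 and −0.21 ± 0.18. The part of the distribution of RNA-Seq reads in these values was not tested.

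The other non-clustered genes formed a graded series. Pcdh20 had a log2 TE of 1.38 ± 0.14, Pcdh1 1.29 ± 0.077, Pcdh18 1.13 ± 0.23 and Pcdh17 1.07 ± 0.086, and all of these were called. Pcdh8 at 0.77 ± 0.10 and Pcdh9 at 0.57 ± 0.092 had an adjusted p under 0.05 but less than a 2-fold difference. Pcdh10, with RNA-Seq counts of 1729 and 1796 and footprints of 1718 and 873, was close to the middle at 0.19 ± 0.078. Pcdh12, an endothelial protocadherin, had at most 10 CDS counts in any library and was not tested.

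Within the gamma array Pcdhgc3 stood apart again. With 801 and 1016 RNA-Seq counts and 803 and 355 footprints its log2 TEs were 0.15 and −0.33, and its fitted value of −0.037 ± 0.094 had a 95% interval of −0.24 to 0.16. Pcdhgc5 had RNA-Seq counts of 1308 and 1278 and footprints of 3088 and 1380 (1.39 ± 0.085, 95% interval 1.21 to 1.57), and Pcdhgc4 had 176 and 238 and 366 and 188 in the same order (1.05 ± 0.13, 0.77 to 1.34). The interval of Pcdhgc3 did not overlap with either. Pcdhgc3 therefore made up 16.4% and 19.2% of gamma counts in the RNA-Seq libraries and 8.30% and 7.69% in the footprints of the same mice. In the alpha array the C-type Pcdhac2 was below most other genes, at 0.42 ± 0.099, and Pcdhac1 did not reach the count threshold. Pcdha12 (1.59 ± 0.18), Pcdha9 (1.51 ± 0.24), Pcdhga1 (1.63 ± 0.17) and Pcdhga5 (1.57 ± 0.14) were the largest fitted values of these arrays.

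The beta genes with the highest RNA levels had TEs near that of all genes. Pcdhb17 had RNA-Seq counts of 208 and 252 and footprints of 136 and 95 (−0.33 ± 0.16, 95% interval −0.68 to 0.018), Pcdhb20 gave 0.12 ± 0.18 and Pcdhb9 0.41 ± 0.17. The called beta genes had fewer RNA-Seq counts than these, although Pcdhb14, called at 1.13 ± 0.16, still had 121 and 102. Genes that were not called could also have few, such as Pcdhb8 with 50 and 53 (0.16 ± 0.29). RNA-Seq counts are the denominator of TE, so the level of a gene and its TE are not independent. Pcdhb16 had 36 and 47 of these and 119 and 67 footprints (1.81 ± 0.22), and Pcdhb21 had 20 and 21 against 84 and 42 (2.24 ± 0.25). Pcdhb21 did not reach 75 RNA-Seq counts over both mice and passed the filter of the test only through its footprints. Pcdhb15 was also called (1.77 ± 0.30), but its log2 TEs of 2.43 (A) and 1.04 (B) differed widely. Across the 16 beta genes with both values, a lower IP ratio went with a higher TE (Spearman's rho −0.68 with exon counts and −0.62 with CDS counts of the IP). On exon and CDS counts rho was 0.54 and 0.53 across 21 gamma genes and −0.11 and −0.31 across 11 non-clustered genes. Over all genes it was −0.027 across 10834 genes on exon counts and −0.18 across 10823 on CDS counts. These correlations across genes describe the libraries. The genes of a class share the same libraries, the TE and the IP came from different mice, and genes with low counts are uncertain in both.

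In the other lists, TE calls went both ways, as they did over all genes, of which 13.2% were called higher and 17.6% lower (edgeR). Tested were 17 partners and proteases, 20 classical cadherins and catenins, 7 large atypical cadherins and 10 promoter regulators. With so few genes, the calls below describe single genes and not a trait of a list. Among the partners, Abi2 (1.76 ± 0.078) and Brk1 (1.24 ± 0.090), both WAVE complex subunits, were higher, and Axin1 (−1.504 ± 0.12) and the kinase Taok2 (−1.62 ± 0.075) were lower. Among the classical cadherins Cdh12 (2.52 ± 0.19) and Cdh6 (2.24 ± 0.15) were higher and Cdh22 (−1.96 ± 0.12) was lower. Among the large atypical cadherins Celsr1 (2.19 ± 0.43) and Fat3 (1.39 ± 0.070) were higher and Celsr3 was lower (−3.31 ± 0.13). Of the promoter regulators only Setdb1 was called, at −1.25 ± 0.10. The medians of these lists, 0.31 for the regulators, 0.091 for the partners, 0.42 for the classical and 0.48 for the large atypical cadherins, were below the medians of the alpha, gamma and non-clustered protocadherins. The fitted median of the 17 beta genes, 0.41, was not above those of the classical and large atypical cadherins.

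The treated mice C and D were compared with mice A and B to ask whether inhibition of mTOR changed the translation of protocadherins. None of 58 protocadherins was called for TE (edgeR, DESeq2 also 0), where 0.305% of 11797 genes were. The number with an unadjusted p under 0.05 was 3, against 6.75% of all genes. None of 59 was called for RNA (0.148% of 12182 genes, DESeq2 0), with 6 at an unadjusted p under 0.05 against 8.24% of all genes. None of 57 was called for footprints (1.03% of 10695 genes, DESeq2 0), with 4 at an unadjusted p under 0.05 against 12.8% of all genes. In the other gene lists the one call was Fat3, a large atypical cadherin, whose RNA was lower after AZD-8055 (−0.63 ± 0.083, adjusted p = 0.0031, edgeR). Its footprints were not called (0.11 ± 0.076, adjusted p = 0.576, edgeR). The TE change of Fat3, which is its footprint change minus its RNA change, therefore had the opposite sign to the RNA change. It was 0.71 ± 0.10 (adjusted p = 0.00084, edgeR) and did not reach 2-fold.

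The class medians of the TE change lay between −0.14 (gamma) and 0.084 (non-clustered), with −0.011 for all genes. The 95% interval of the TE change stayed within a 2-fold difference in either direction for 47 of 58 protocadherins, and among these for 3 of 9 alpha, 15 of 17 beta, 19 of 21 gamma and 10 of 11 non-clustered genes. Pcdhgc5, with the most footprints in its array, gave −0.0062 ± 0.12 with an interval of −0.26 to 0.25, and Pcdh7 gave −0.046 ± 0.10 with an interval of −0.27 to 0.18.

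**Figure D4:**
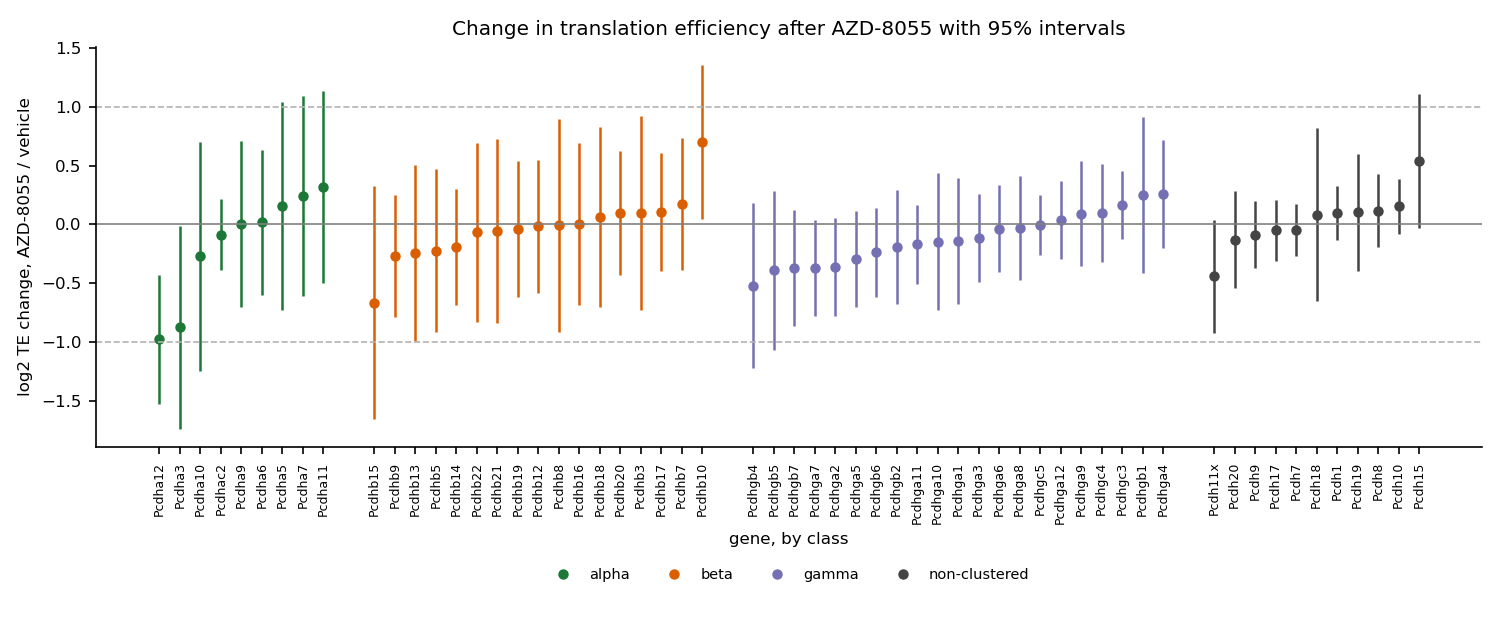
Fitted log2 change in TE after AZD-8055 against vehicle for the 58 protocadherin genes tested, ordered by class and value, with 95% intervals and dashed lines at 2-fold. Most points lie near 0, and Pcdha12 is lowest at −0.98 with an interval that does not include 0 before adjustment.

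The lowest unadjusted p for TE was that of Pcdha12. Its normalized RNA-Seq counts were 54.8 and 52.1 in mice A and B and 95.2 and 74.5 in mice C and D, and its footprints 155 and 158 against 139 and 114. Both kinds of count did not overlap between the groups, and the change in TE was −0.98 ± 0.26 (95% interval −1.53 to −0.43, adjusted p = 0.153, edgeR). Without a filter on low counts, which changes the adjustment, it was called, at −1.02 (adjusted p = 0.0325, edgeR). Pcdh10 had normalized footprints of 1409 and 1365 under vehicle and 1643 and 1747 after AZD-8055, a change of 0.29 ± 0.080 (adjusted p = 0.175, edgeR). Without mouse C, which had the fewest footprints, Pcdh10 (0.36, adjusted p = 0.00224, edgeR) and Pcdhb15 (−1.32, adjusted p = 0.00743, edgeR) were called, while the genes called overall went from 5 higher and 105 lower to 355 higher and 482 lower. Pcdhb15 was also called without the filter (−0.93, adjusted p = 0.0347, edgeR), and its footprints of 107 and 71.9 under vehicle and 66.2 and 36.0 after AZD-8055 did not overlap.

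Transcripts whose translation depends most on mTOR begin with a terminal oligopyrimidine tract, a cytosine followed by a run of pyrimidines, and the start sites of the protocadherins were read for this reason. Of the protocadherins, 9 genes had a start in the list of promoters used (GRCm38.p6), all of them non-clustered. The genes whose listed start is also the outer end of the gene are shown, as 15 bases before the start, the first 5 transcribed bases in capitals and the next 10 bases.
Pcdh10 (chr3:45378383-45378412, plus strand): gagaagcggagcgctCGGAGctcagaaact
Pcdh8 (chr14:79771298-79771327, minus strand): ggcgctcgccagcgcAGCTCcagcccaggg
Pcdh17 (chr14:84443548-84443577, plus strand): gaggtgaatagagtcAGTCAgcaagagacg
Pcdh20 (chr14:88471382-88471411, minus strand): ttgttggcaaagcctGGTTTtgtgggaaca
None of the 10 listed starts of these 9 genes began with C and 4 further bases that are each C or T, read on the transcribed strand. Among all 32851 listed starts 2.51% did, and of the 91 starts of ribosomal protein genes 15.4% did, so that the listed starts miss many tracts and the absence here describes these letters only.

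Protocadherin levels also differed between individual mice. Taking the tissue RNA of all 6 mice (RNA-Seq of A to D, input of E and F), 4 of 62 protocadherins with enough counts lay more than 2-fold outside the range of the other 5 mice in mouse E, against 0.201% of 12418 genes, and none did so in any other mouse. These genes were named after their values had been seen. Pcdhga11 had 72.8 normalized CDS counts in mouse E and 244 to 341 in the others. Pcdhgb6 had 66.0 against 185 to 231, and Pcdhb5 had 20.5 against 65.6 to 87.3. Pcdhgb8 was higher in mouse E, at 66.0 against 14.8 to 32.1. The limit here was a mean of 37 CDS counts over the 6 mice, and some values rest on few raw counts. Pcdhgb8 had 15, 31, 15 and 34 in mice A to D, and Pcdhb5 had 27 in mouse E. The part of counting error in these differences was not tested. The IPs of the same mice differed in the same direction for Pcdhga11 (49.6 in E and 139 in F), Pcdhgb6 (27.1 and 94.3) and Pcdhb5 (61.7 and 87.0), but not for Pcdhgb8 (18.1 and 20.3).

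**Figure D5:**
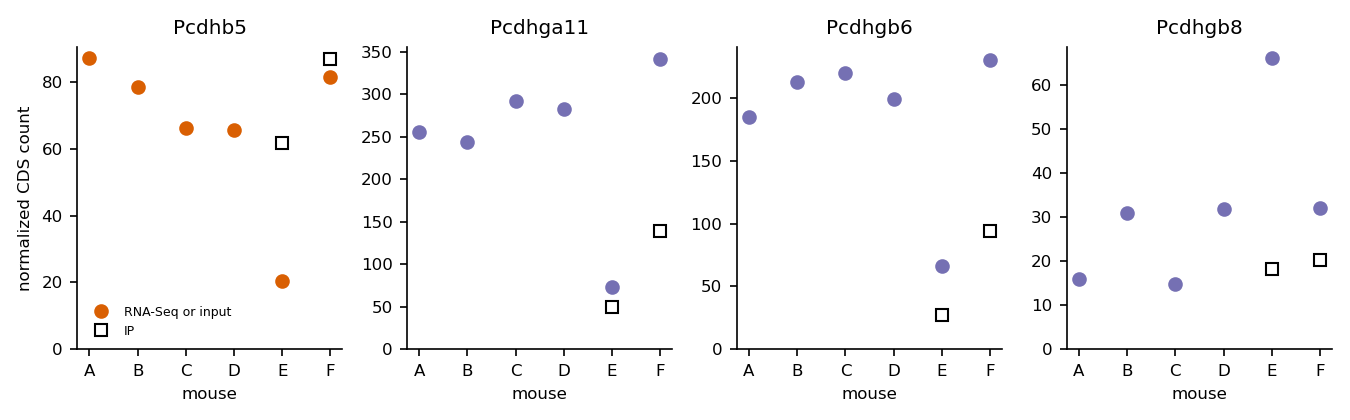
Normalized CDS counts (counts over size factors) of Pcdhb5, Pcdhga11, Pcdhgb6 and Pcdhgb8 in the tissue RNA of mice A to F (filled points) and in the IPs of mice E and F (open squares). Mouse E lies below the other mice in the first 3 genes and above them in Pcdhgb8.

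The spread between mice E and F was wider in the clustered classes in general. The SD of the log2 ratio between their inputs was 0.72 across 22 gamma genes, 0.58 across 17 beta genes, 0.54 across 9 alpha genes and 0.35 across 11 non-clustered genes, against 0.32 across all genes. Counts differ between the classes, and the part of counting error in these SDs was not tested. Since the IP is compared with the input of the same mice, the ratios of Pcdhga11 (−1.05 and −1.83) and Pcdhgb6 (−1.72 and −1.86) were much closer than their levels. With the mouse as a replicate block in the IP test, which takes up such differences, all 22 gamma genes were called lower and Pcdhga11 was among them.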

How the data were processed

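Ribosome profiling and poly(A) RNA-Seq libraries of mouse brain were analysed from deposited tables of raw read counts per gene, which covered CDS in 12 libraries and whole exons in 8 (RNA-Seq only). The submitters' processing notes name mm10, Bowtie2, TopHat2 and HTSeq. For footprints, the authors trimmed the reads, removed rRNA with Bowtie2, aligned the rest with TopHat2 and counted uniquely mapped reads with HTSeq. RNA-Seq counts are also of uniquely mapped reads, and the methods refer the rest of that analysis to earlier work. Tool versions and the annotation are not given in the sources used here.

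Counts were divided by DESeq2 size factors (DESeq2 1.42.0) for ratios per mouse. Tests used edgeR 4.0.16 in R 4.3.3 (TMM, quasi-likelihood F-test, Benjamini-Hochberg over all genes whose mean over the libraries reached 37 counts). IP, TE and TE change calls needed an adjusted p under 0.05 and over 2-fold, and RNA and footprint changes an adjusted p under 0.05. TE medians used genes with at least 75 counts summed over mice A and B in each kind of library. The study's RiboDiff was not installed. Summaries and figures used Python 3.11.15, numpy 2.4.6, pandas 2.3.3 and matplotlib 3.10.9, and the tests were tried on simulated counts. A pseudocount of 0.5 was used for differences between mice only.

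Libraries with the same mouse letter come from the same animal. Across genes, differences between mice A and B in RNA and footprints correlated at 0.319, those of C and D at 0.203, and differences between E and F (input against IP) at 0.507. The groups hold 2 animals each, so p-values of the IP, RNA and footprint comparisons rest on 2 against 2. The TE tests fitted the footprint and RNA-Seq libraries of mice A to D together with a shared dispersion. Mice C and D therefore also entered the SEs, intervals and p-values of TE in vehicle-treated mice. The main tests treated libraries of the same mouse as independent. The alternative with the mouse as a block took up the pairing.

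The members and the gene lists were chosen with earlier results of these data known. The genes named are all non-clustered and C-type genes, the 3 with the highest mean CDS count in the alpha, beta, gamma A and gamma B groups, the members called in a comparison (the 10 largest changes alike in both mice where over 20 were called), called genes of the other lists, and genes singled out in the text. Alternatives were DESeq2, other scalings and filters, the other count table, the mouse as a block, no fold limit and leaving out each mouse. Positions are those of RefSeq on GRCm38.p6, in which 70 of 71 symbols were found.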

Additional observations from a re-analysis of the deposited data

How the results depend on the processing

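With 2 mice a group, calls rest on few libraries. Of the protocadherins, 36 were called lower in the IP. This count stayed between 35 and 45 under the other tools, scalings and count table and without the fold limit or the filter. It was 19 of 38 with a mean of at least 100 counts, where fewer genes were tested. The number called for TE (39) lay between 30 and 46, and at 23 of 35 with that filter. With the mouse as a replicate block, 37 and 38 were called. With the block the count for TE change stayed at 0, and for RNA and footprint change, where each mouse gives 1 library, no block could be fitted. Without the filter 1 gene was called for TE change and 1 for footprints, and leaving out a mouse gave 0 to 2 for footprints, 0 for RNA and TE change, and 33 to 40 for TE. Leaving out a mouse of the IP leaves no replicates and was run for values only.

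Median log2 IP ratios (alpha −1.49, beta −0.10, gamma −1.75, non-clustered −0.69) were −1.02, 0.13, −1.28 and −1.98 with CDS counts, where beta changed sign, and −1.89, −0.49, −2.14 and −1.08 with total counts, a scaling that moved the fitted median of all genes from −0.034 to −0.31 in the IP and from −0.0096 to −0.15 in TE. Leaving out each mouse gave −1.43 to −1.27, −0.20 to −0.10, −1.99 to −1.60 and −0.76 to −0.41. Median log2 TEs (1.09, 0.26, 1.19 and 1.08) were 0.16, 1.10 and 0.99 for beta, gamma and non-clustered genes with total counts. With at least 200 counts they were 0.38, 0.25 and 1.14 for alpha (then Pcdhac2 alone), beta and non-clustered genes. Leaving out each mouse gave 0.87 to 1.09, 0.26 to 0.27, 1.189 to 1.199 and 1.09 to 1.14.

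Named genes that changed sign were not called in the main test of that comparison. For the IP these were Pcdh8 (0.11 with CDS counts, −0.094 to 0.088 leaving out a mouse), Pcdhb17 (−0.085 with total counts), Pcdhb9 (0.020 with DESeq2, 0.019 with its size factors, 0.077 without a filter, 0.20 with CDS counts, −0.043 to 0.29 leaving out a mouse), Pcdhb20 (0.047 without a filter, 0.26 without mouse F) and Pcdhb15 (0.32 with CDS counts, −0.60 to 0.31 leaving out a mouse). For TE they were Pcdh15 (−0.53 without mouse A, 0.056 without B), Pcdhgc3 (−0.26 without A, 0.17 without B) and Pcdhb20 (−0.019) with total counts. The causes of these changes were not tested. Most of these values lay near 0, but those of Pcdhb15 in the IP and Pcdh15 in TE lay further from it when a mouse was left out.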
